A study of Mus musculus with 2 samples.

Results

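Regulatory T cells were taken from 2 droplet single-cell RNA libraries of mouse optic nerve by their UMIs (unique molecular identifiers, counted as a proxy for captured RNA molecules). A cell was a member if it held at least 1 UMI of Cd3d, Cd3e or Cd3g, at least 1 UMI of Foxp3 and 0 UMIs of Cd8a and Cd8b1. This rule gave 454 cells of the 25652 cells kept by filters on genes, UMIs and mitochondrial RNA, with 77 in library C-ON and 377 in library FMC_new. Foxp3, the CD3 genes and the CD8 genes chose the members, so their levels are a description and no finding.

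Both libraries came from Nf1-OPG mice, which carry Nf1 flox/mut with a GFAP-Cre transgene on a C57BL/6 background and develop optic glioma. Cre is driven by an astroglial promoter, so T cells of these mice keep the germline Nf1 mutation in 1 copy and are not the intended target of the recombination. Optic nerves of 10 mice aged 12 weeks were pooled, according to the labels. The protocol text of both libraries also speaks of meningeal dura, collected separately, while the tissue label of both is optic nerve, and whether any dura cells entered these libraries is not known. The suspension was read with 5 prime chemistry that also captures T cell receptor variable genes. The libraries hold 1 genotype and no treatment contrast, and the word control in the title of C-ON is not explained. A library is the replicate here, cells within it are not, and nothing in the labels says whether the 2 pools were separate animals.

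Regulatory T cells are the CD4 lineage that restrains other lymphocytes. The transcription factor Foxp3 defines them, and they depend on IL-2 made by other T cells, which they bind through the high-affinity receptor chain Il2ra while making little IL-2 of their own. In tissues they are also known for repair factors such as amphiregulin. In murine Nf1 optic glioma, T cells have been placed in a circuit with monocytes and tumour cells through midkine and the chemokines Ccl4 and Ccl5. Regulatory T cells are of interest there, but residency and suppression were not measured here.

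The 2 libraries held 85101211 and 129113325 UMIs on 10845 and 21341 barcodes, of which 8834 and 16818 were kept. The median member had 3312 UMIs in C-ON and 3188 in FMC_new, close to conventional CD4 T cells (3585 and 3304 UMIs) and CD8 T cells (3915 and 3558 UMIs). The libraries shared 296 barcode sequences, which is 2.73% of those in C-ON and 1.39% of those in FMC_new, and 6 members had a barcode that also occurs in the other library. Markers of other cell types were found in T cells of both libraries, at levels that differed between the libraries, and whether they came from free RNA or from doublets was not tested. Summed markers of oligodendrocytes came to 12478 CPM (a gene's UMIs as a share of the summed UMIs, on the usual CPM scale) in members of C-ON and 8726 CPM in members of FMC_new, against 12779 and 5292 CPM in conventional CD4 T cells, and their part in the results was not tested. Pituitary hormone genes, listed as markers of an unrelated tissue, came to 4.95 CPM and 8904 CPM, with at least 1 UMI in 2.60% of members of C-ON and in every member of FMC_new. Markers of all other cell types made up a median of 0.841% and 1.46% of a member's UMIs, against 0.417% and 1.49% in conventional CD4 T cells. They exceeded 5% of UMIs in 7 and 38 members, and the highest share was 51.2%.

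Members made up 0.872% of kept cells in C-ON (95% exact binomial interval 0.689 to 1.09%) and 2.24% in FMC_new (2.02 to 2.48%). The denominators differed in makeup, since oligodendrocytes were 6044 of the kept cells in C-ON and 2696 in FMC_new. Among CD3-positive cells the shares lay nearer each other, at 5.85% (4.64 to 7.26%) and 6.37% (5.76 to 7.03%). Of CD4-lineage T cells, taken as members plus conventional CD4 T cells, members were 29.2% (23.8 to 35.1%) and 32.5% (29.8 to 35.3%). These intervals overlap, cover counting error only, and the 2 libraries allow no test. Conventional CD4 T cells were defined by CD3, at least 1 Cd4 UMI and 0 UMIs of Foxp3 and CD8 genes, which left 187 and 782 cells. Members needed no Cd4 UMI, and 29 and 160 of them had one. With a Cd4 UMI asked of members too, their share of CD4-lineage T cells was 13.4% and 17.0%, so the share depends on unequal rules. CD8 T cells had CD3, at least 1 UMI of Cd8a or Cd8b1 and none of Cd4 or Foxp3, which left 578 and 2249 cells.

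The Foxp3 call rested on few molecules. In C-ON 40 members had 1 Foxp3 UMI, 21 had 2 and 16 had 3 or more, and in FMC_new the numbers were 212, 88 and 77. At least 1 Foxp3 UMI was also seen in 0.530% and 0.742% of oligodendrocytes, which should lack the gene and had median depths of 7724.5 and 7229.5 UMIs. Natural killer cells had Foxp3 in 0 of 100 and in 0.340% of 294 cells, and with 3 counts as the limit 0 of 100 cells allows a share of cells with a UMI of up to 3%. Ctla4, the inhibitory receptor that competes with CD28 for its ligands, was detected in 95.0% of the members with 1 Foxp3 UMI in C-ON and 86.8% in FMC_new, against 44.0% and 40.4% of CD3-positive cells without Foxp3 or CD8 UMIs. For Il2ra the shares were 52.5% and 38.2%, against 14.5% and 8.79%. Members with 3 or more Foxp3 UMIs had Il2ra in 68.8% and 71.4% of cells, and were also deeper, at medians of 5012.5 and 4690 UMIs.

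**Figure D1:**
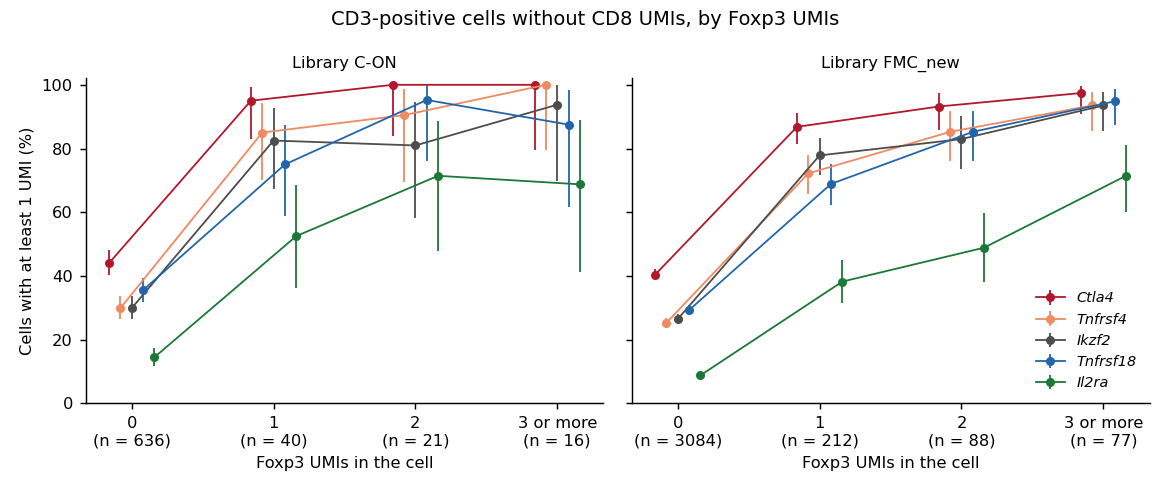
Share of cells with at least 1 UMI of each of 5 genes (y axis, percent) by the number of Foxp3 UMIs in the cell (x axis), for CD3-positive cells without CD8 UMIs in each library; bars are 95% exact binomial intervals. Ctla4 goes from 44.0% and 40.4% of cells with 0 Foxp3 UMIs to 95.0% and 86.8% of those with 1, and the cells with 0 are not members.

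Just outside the rule lay cells with Foxp3 and CD3 that also had a CD8 UMI, 9 in C-ON and 82 in FMC_new, with Ctla4 in all 9 and in 82.9% of the latter. Their median depths were 9303 and 6001 UMIs, above the members. Cells with a Foxp3 UMI and no CD3 UMI numbered 38 and 84, with Ctla4 in 2.63% and 28.6%. The filters kept out 3 and 24 further cells that met the rule, and most of those had over 20000 UMIs or over 5000 genes.

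Most members carried several regulatory T cell genes at once. All of Ctla4, Tnfrsf18, Ikzf2, Il2ra and Tnfrsf4 were detected in 36 of 77 members in C-ON (46.8%, 95% exact interval 35.3 to 58.5%) and 128 of 377 in FMC_new (34.0%, 29.2 to 39.0%). None of the 5 was detected in 1 and 10 members. Ctla4 had a UMI in 97.4% and 90.5% of members, Tnfrsf4 in 89.6% and 79.6%, Ikzf2 in 84.4% and 82.2%, Tnfrsf18 in 83.1% and 78.0%, and Il2ra in 61.0% and 47.5%. When each cell was thinned to 1000 UMIs, which left out 3 and 6 shallower members, Ctla4 was still detected in 77.0% and 71.4%, Tnfrsf4 in 70.3% and 53.9%, Ikzf2 in 44.6% and 57.1%, Tnfrsf18 in 56.8% and 45.0% and Il2ra in 27.0% and 21.8%. Conventional CD4 T cells thinned alike had Ctla4 in 48.1% and 45.2%, Tnfrsf4 in 27.0% and 26.1%, and Il2ra in 2.70% and 4.57%. In oligodendrocytes Ctla4 had a UMI in 1.03% and 3.41% and Il2ra in 0.430% and 0.853%, whereas Ikzf2 had one in 33.4% and 33.5%.

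Sums of raw UMIs per library and class were then compared with edgeR's quasi-likelihood test with the library as a block and Benjamini-Hochberg adjustment. A log2 fold change is members minus comparison cells. The standard error (SE) after it was derived from the fold and the test's F statistic, which rests on a variance moderated across genes. A gene was called at an adjusted p under 0.05. Against conventional CD4 T cells, 10319 genes were tested, of which 47 were higher in members (0.455% of those tested) and 89 were lower (0.862%). The comparison with CD8 T cells tested 11606 genes, of which 223 were higher (1.92%) and 206 were lower (1.77%). Both comparisons use the same members. The direction was the same in each library for 44 of the 47 and 82 of the 89 genes, and for 221 of the 223 and 187 of the 206. Without the library term the comparison with conventional CD4 T cells kept only Rln3, Tnfsf8 and an immunoglobulin segment, and DESeq2 with the library term called 25 higher and 24 lower. Without cells that had over 5% of their UMIs from markers of another cell type, a limit chosen after seeing the data, 44 genes were higher and 70 lower than in conventional CD4 T cells, and 256 were higher and 200 lower than in CD8 T cells.

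Il2ra stood at 539 CPM in C-ON and 316 CPM in FMC_new in members, against 64.4 and 47.1 CPM in conventional CD4 T cells and 19.9 and 24.6 CPM in CD8 T cells. Its log2 fold change was 2.89 ± 0.18 against conventional CD4 T cells (adjusted p = 9.2e-05) and 4.14 ± 0.29 against CD8 T cells (adjusted p = 0.0026). Members were the highest class in both libraries and the class values did not overlap. The gene lies at chr2:11642807-11693193 (GRCm38, plus strand). Il2 itself, the ligand, lies at chr3:37120523-37125959 on the minus strand, and had 1 UMI in the members of C-ON and 2 in those of FMC_new, at 2.47 and 1.10 CPM against 12.9 and 23.8 CPM in conventional CD4 T cells. It was lower by log2 (-3.88 ± 0.68, adjusted p = 0.028). The other chains of the receptor did not pass the test, with Il2rb at 480 and 397 CPM in members and 305 and 286 CPM in conventional CD4 T cells (log2 0.56 ± 0.16, adjusted p = 0.18). Bcl2, an inhibitor of apoptosis in the list of IL-2 receptor and STAT5 genes, was lower than in both other classes, at 59.4 and 90.4 CPM against 319 and 276 CPM in conventional CD4 T cells (log2 -1.93 ± 0.22, adjusted p = 0.0046) and 385 and 439 CPM in CD8 T cells. Of the 16 genes of that list, 1 was higher and 2 were lower than in conventional CD4 T cells (1 and 1 with DESeq2). Against CD8 T cells 4 were higher (Il2ra, Socs2, Cish and Il7r) and 1 was lower. Over all tested genes 0.455% were higher and 0.862% lower than in conventional CD4 T cells, and 1.92% and 1.77% against CD8 T cells.

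Foxp3 is known to act with NFAT, a factor that recognises a GGAAA core, at the promoters of Il2ra, Ctla4 and Il2. The promoter windows of these genes are printed because the first and second were higher and the third was lower in members. Each runs from 250 bases before to 50 after the RefSeq start (GRCm38.p6), with GGAAA or its reverse complement TTTCC in capitals. Il2ra is chr2:11642542-11642841 on the plus strand, Ctla4 is chr1:60908775-60909074 on the plus strand and Il2 is chr3:37125905-37126204 on the minus strand.
Il2ra: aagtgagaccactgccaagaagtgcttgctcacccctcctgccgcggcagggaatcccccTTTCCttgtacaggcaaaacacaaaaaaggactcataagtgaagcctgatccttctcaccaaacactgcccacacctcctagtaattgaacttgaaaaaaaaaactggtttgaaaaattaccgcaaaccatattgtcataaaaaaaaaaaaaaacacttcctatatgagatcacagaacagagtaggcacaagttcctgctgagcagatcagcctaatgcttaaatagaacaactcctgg
Ctla4: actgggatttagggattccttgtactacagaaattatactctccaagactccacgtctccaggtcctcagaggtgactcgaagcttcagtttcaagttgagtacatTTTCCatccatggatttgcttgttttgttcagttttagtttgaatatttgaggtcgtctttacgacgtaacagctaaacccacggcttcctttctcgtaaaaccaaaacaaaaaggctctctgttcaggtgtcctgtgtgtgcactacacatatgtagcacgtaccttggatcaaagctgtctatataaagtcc
Il2: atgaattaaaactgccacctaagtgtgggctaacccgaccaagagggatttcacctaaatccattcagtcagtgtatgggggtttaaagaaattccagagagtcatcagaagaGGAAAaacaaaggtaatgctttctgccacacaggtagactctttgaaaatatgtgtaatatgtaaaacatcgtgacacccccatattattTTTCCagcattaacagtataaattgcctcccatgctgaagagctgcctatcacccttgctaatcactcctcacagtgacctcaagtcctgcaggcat
The Il2ra and Ctla4 windows hold 1 match each and the Il2 window holds 2. These letters occur in 61.3% of all 32851 windows. Among the genes tested against conventional CD4 T cells they occur in 59.1% of 10418 windows, in 28 of 39 windows (71.8%) of genes higher in members and in 52 of 72 (72.2%) of genes lower. The forkhead letters TGTTTAC, or GTAAACA on the other strand, which do not overlap the first motif, are in 3.65% of all windows and in none of these 3. A match is a description and not a shown site.

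The list of costimulatory receptors of the CD28 and TNF receptor families also holds the ligand Cd40lg and the adaptors Traf1 and Traf2. Of its 17 tested genes, 4 were higher and 1 (Cd40lg) was lower than in conventional CD4 T cells (median log2 0.36, against 0.00 over all genes tested). With DESeq2 4 were higher, among them Tnfrsf9, and 1 was lower. Against CD8 T cells 9, including Cd40lg and Traf1, were higher and 0 lower (median log2 1.12, against -0.03). The backgrounds were 0.455% higher and 0.862% lower, and 1.92% and 1.77% against CD8 T cells. Tnfrsf4 (OX40) was at 1121 and 902 CPM in members and 360 and 331 CPM in conventional CD4 T cells, a log2 difference of 1.55 ± 0.15 (adjusted p = 0.0011), and against 42.2 and 56.4 CPM in CD8 T cells the difference was 4.33 ± 0.21. Tnfrsf18 (GITR), which lies beside Tnfrsf4 on chromosome 4, was at 685 and 574 CPM against 230 and 217 CPM in conventional CD4 T cells (log2 1.49 ± 0.16, adjusted p = 0.0018). Ctla4 was the most abundant of them, at 1687 and 1668 CPM against 638 and 798 CPM in conventional CD4 T cells and 299.6 and 338 CPM in CD8 T cells, with log2 differences of 1.24 ± 0.16 (adjusted p = 0.0055) and 2.37 ± 0.14 (adjusted p = 0.00029). Cd27 completed the group that was higher than in conventional CD4 T cells, at 161 and 176 CPM against 39.7 and 82.6 CPM.

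Cd40lg, the ligand by which helper T cells license B cells and dendritic cells, was lower than in conventional CD4 T cells. It was nevertheless among the 9 genes of the list called higher than in CD8 T cells. Cd40lg was detected in 6.49% and 5.57% of members and in 52.9% and 41.0% of conventional CD4 T cells, with a log2 difference of -2.23 ± 0.31 (adjusted p = 0.040). In the members of C-ON 75.0% of its UMIs came from 1 cell, which bears on both comparisons. Icos, a costimulatory receptor shared by activated CD4 T cells, was at 478 and 436 CPM in members and 388 and 439 CPM in conventional CD4 T cells (log2 0.14 ± 0.16, adjusted p = 0.88) and was higher than in CD8 T cells by log2 1.33 ± 0.13. Tnfrsf9 (4-1BB) was at 624 and 476 CPM against 61.2 and 107 CPM in conventional CD4 T cells, a log2 value of 2.69 ± 0.34 that did not pass the threshold in edgeR (adjusted p = 0.054) and passed it in DESeq2. Its 2 libraries gave the same direction.

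**Figure D2:**
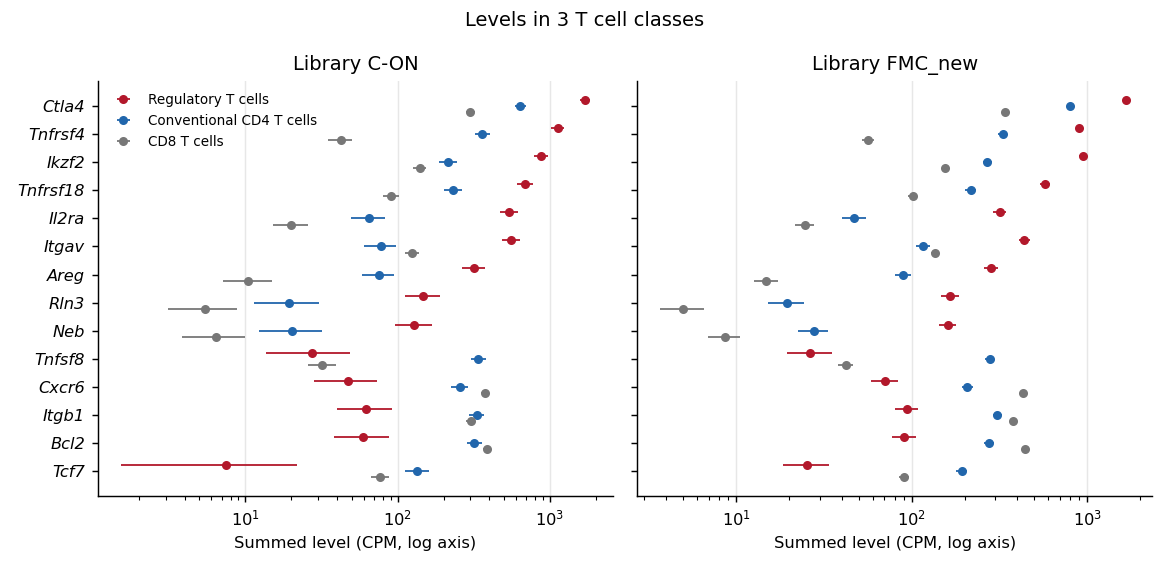
Level of 14 genes (x axis, CPM of summed UMIs, log axis) in regulatory T cells, conventional CD4 T cells and CD8 T cells of each library; bars are 95% exact Poisson intervals for counting error. Regulatory T cells are highest from Ctla4 to Neb and lowest from Tnfsf8 to Tcf7 in both libraries, with Il2ra at 539 and 316 CPM in them against 64.4 and 47.1 CPM in conventional CD4 T cells.

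Among 31 tested transcription factors linked to regulatory T cells, 2 were higher and 1 was lower than in conventional CD4 T cells. With DESeq2 1 was higher and 0 were lower. Of all tested genes 0.455% were higher and 0.862% lower there, and 1.92% and 1.77% against CD8 T cells. Ikzf2 (Helios), an Ikaros-family factor, was at 876 and 944 CPM in members, 215 and 270 CPM in conventional CD4 T cells and 139 and 156 CPM in CD8 T cells, with log2 differences of 1.92 ± 0.15 (adjusted p = 0.00039) and 2.60 ± 0.13 (adjusted p = 0.00023). It was not detected in 15.6% and 17.8% of members. Ikzf4 (Eos), a partner of Foxp3 in repression, was at 49.5 and 62.8 CPM against 8.59 and 14.8 CPM in conventional CD4 T cells (log2 2.20 ± 0.30, adjusted p = 0.0083). Bach2, a repressor associated with resting lymphocytes, was lower than in both other classes, at 49.5 and 47.4 CPM against 125 and 111 CPM in conventional CD4 T cells (log2 -1.26 ± 0.19, adjusted p = 0.013). Against CD8 T cells 7 factors were higher, led by Maf at 431 and 244 CPM against 21.3 and 24.6 CPM, and 4 were lower, among them Runx3, which directs the CD8 fate, at 24.7 and 49.0 CPM against 117 and 122 CPM.

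Factors of helper subsets did not pass the test against conventional CD4 T cells. Gata3 was at 79.2 and 45.2 CPM in members and 58.0 and 49.2 CPM in conventional CD4 T cells (log2 0.10 ± 0.24, adjusted p = 0.96). Tbx21 (T-bet) was at 71.8 and 71.6 CPM against 84.8 and 64.6 CPM, and its log2 value of 0.00 ± 0.20 changed sign between settings.

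Of 21 tested genes of suppression and tissue repair, 4 were higher and 0 were lower than in conventional CD4 T cells (median log2 0.71). With DESeq2 4 were higher and 0 were lower there. Against CD8 T cells 9 of 23 were higher and 3 were lower (median log2 1.03). The backgrounds over all tested genes were 0.455% higher and 0.862% lower, and 1.92% and 1.77% against CD8 T cells. Areg (amphiregulin), an EGF receptor ligand of tissue repair, was detected in 27.3% and 23.9% of members, at 317 and 283 CPM against 75.2 and 89.5 CPM in conventional CD4 T cells (log2 1.85 ± 0.18, adjusted p = 0.0012) and 10.5 and 14.9 CPM in CD8 T cells (log2 4.49 ± 0.21, adjusted p = 0.00019). Members were above both classes in each library. Fgl2, a secreted suppressor, was at 393 and 245 CPM against 105 and 120 CPM in conventional CD4 T cells (log2 1.43 ± 0.23, adjusted p = 0.039), and Capg, an actin-capping protein, at 591 and 612 CPM against 207 and 256 CPM. Gzmb (granzyme B) was higher than in conventional CD4 T cells, at 421 and 107 CPM against 51.6 and 18.1 CPM (log2 2.79 ± 0.20, adjusted p = 0.00019), but a single cell gave 31.8% of its UMIs in C-ON, and it was not called against CD8 T cells (101 and 100.1 CPM, log2 1.03 ± 0.74, adjusted p = 0.79).

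Il10, the suppressive cytokine, was higher in members than in CD8 T cells and was not called against conventional CD4 T cells. It was at 54.4 and 62.3 CPM in members, 39.7 and 69.2 CPM in conventional CD4 T cells (log2 0.04 ± 0.24, adjusted p = 1.0) and 1.35 and 2.93 CPM in CD8 T cells (log2 4.59 ± 0.33, adjusted p = 0.00075). Lrrc32 (GARP), which tethers latent TGF-beta, was at lower levels, with 9.90 and 25.9 CPM in members, 1.07 and 4.38 CPM in conventional CD4 T cells (adjusted p = 0.057) and 0 and 0.586 CPM in CD8 T cells (log2 5.56 ± 0.69, adjusted p = 0.0070). Itgb8, an integrin chain that activates TGF-beta, was at 307 and 219 CPM against 74.1 and 120 CPM in conventional CD4 T cells, a log2 value of 1.39 ± 0.31 that did not pass (adjusted p = 0.18), and against 52.4 and 41.9 CPM in CD8 T cells, where it did (log2 2.44 ± 0.15). Tgfb1 itself was at 218 and 194 CPM in members and 159 and 166 CPM in conventional CD4 T cells (adjusted p = 0.62). The cytotoxic genes Gzma and Prf1 were lower than in CD8 T cells, by log2 -4.69 ± 0.39 and -3.70 ± 0.36.

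Genes reported for tissue-resident regulatory T cells gave 4 higher and 2 lower of 22 against conventional CD4 T cells (median log2 0.77). Against CD8 T cells they gave 8 higher and 1 lower (median log2 0.94). The backgrounds over all tested genes were 0.455% higher and 0.862% lower, and 1.92% and 1.77% against CD8 T cells. With DESeq2 4 were higher and 1 was lower than in conventional CD4 T cells. Those 4 include Itgae and Tnfrsf9, so not all of the edgeR calls held in it. Klrg1, an inhibitory lectin receptor, was detected in 20.8% and 7.69% of members and in 2.14% and 1.28% of conventional CD4 T cells (log2 3.09 ± 0.40, adjusted p = 0.0059). Il1rl1, the receptor for IL-33, was at 24.7 and 41.9 CPM against 9.67 and 8.48 CPM (log2 2.02 ± 0.38, adjusted p = 0.040), and Glrx at 260 and 192 CPM against 81.6 and 93.0 CPM. At least 1 of Areg, Il1rl1 and Klrg1 was detected in 39.0% of members in C-ON (95% exact interval 28.0 to 50.8%) and 32.9% in FMC_new (28.2 to 37.9%), while Areg and Il1rl1 together were in 5.19% and 3.18%. Itgae (CD103), which binds E-cadherin, was in 48.1% and 54.4% of members against 4.28% and 11.1% of conventional CD4 T cells, and its log2 value of 2.60 ± 0.54 did not pass in edgeR (adjusted p = 0.33) but did in DESeq2. Against CD8 T cells it was higher by 2.22 ± 0.27 (adjusted p = 0.016). Ccr8, a chemokine receptor of tissue and tumour regulatory T cells, was at 334 and 283 CPM, with 153 and 206 CPM in conventional CD4 T cells (log2 0.77 ± 0.20, adjusted p = 0.16) and 67.2 and 73.1 CPM in CD8 T cells (log2 2.10 ± 0.16, adjusted p = 0.00083).

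The residency receptor Cxcr6 and the integrin chain Itgb1 were lower in members. Cxcr6 was at 47.0 and 70.5 CPM against 255 and 208 CPM in conventional CD4 T cells (log2 -1.88 ± 0.23, adjusted p = 0.0065) and 372 and 428 CPM in CD8 T cells. Itgb1 was at 61.9 and 93.7 CPM against 332 and 307 CPM (log2 -1.99 ± 0.21, adjusted p = 0.0023), whereas Itgav, the alpha V integrin chain, was at 554 and 438 CPM against 77.3 and 116 CPM (log2 2.34 ± 0.25, adjusted p = 0.0089). Members thus had more of one integrin chain and less of another than both other classes. Of 26 tested chemokine receptor and adhesion genes, 1 was higher and 4 were lower than in conventional CD4 T cells, the other lower ones being Gpr183, an oxysterol receptor that guides lymphocytes, and Cd44. Against CD8 T cells 7 of 27 were higher, including Ccr4 (log2 3.63 ± 0.48) and Ccr9 (log2 3.03 ± 0.34), and 4 were lower. With DESeq2 2 were higher and 2 lower than in conventional CD4 T cells. Over all tested genes 0.455% were higher and 0.862% lower than in conventional CD4 T cells, and 1.92% and 1.77% against CD8 T cells.

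**Figure D3:**
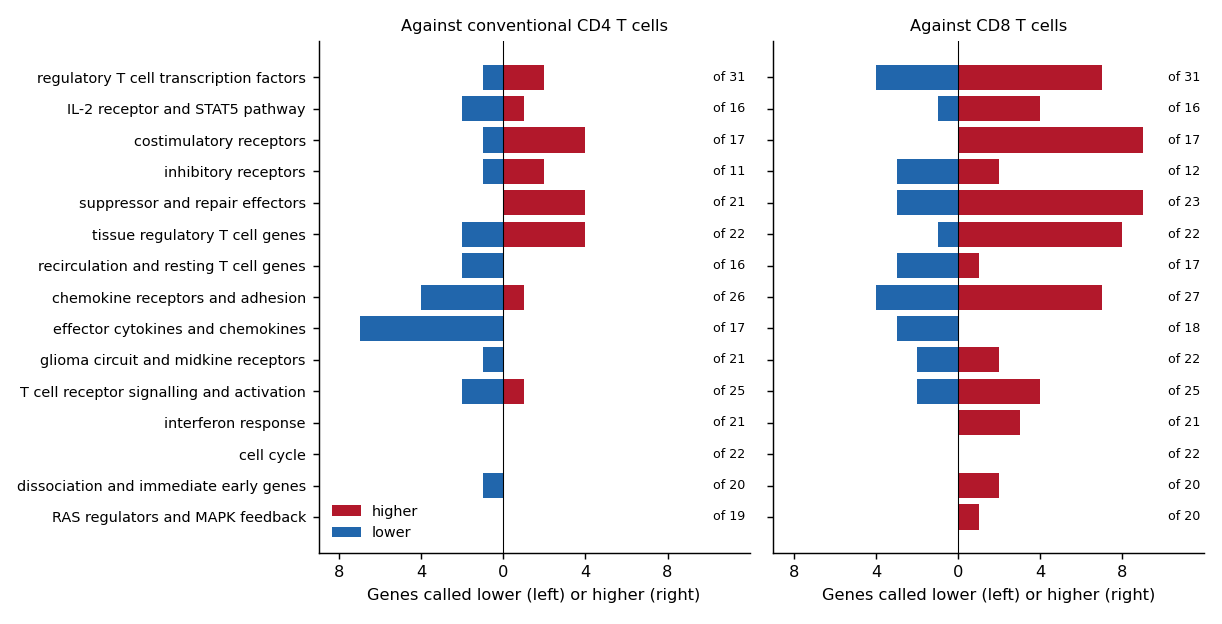
Number of genes called lower (bars to the left) or higher (bars to the right) in regulatory T cells for each of 15 gene lists, against conventional CD4 T cells (left panel) and CD8 T cells (right panel), with the number of genes tested at the right. Effector cytokines and chemokines had 7 lower and 0 higher of 17 in the left panel. The list labelled costimulatory receptors, which also holds the ligand Cd40lg and the adaptors Traf1 and Traf2, had 9 higher and 0 lower of 17 in the right panel.

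Effector cytokines were the list with the most genes lower than in conventional CD4 T cells. Of 17 tested, 7 were lower and 0 higher (median log2 -1.49), beside a background of 0.862% lower. DESeq2 called 1 higher and 2 lower. At an unadjusted p under 0.05, 4 were higher and 8 lower, beside 966 of all 10319 tested genes, 461 of them higher. Tnfsf8, the ligand of CD30, was at 27.2 and 26.5 CPM in members against 338 and 278 CPM (log2 -3.47 ± 0.20, adjusted p = 6.5e-05). Ifng, the cytokine of Th1 cells, was in 5.19% and 10.3% of members and 42.2% and 24.9% of conventional CD4 T cells (log2 -1.77 ± 0.18, adjusted p = 0.0014), and a single member held 88.9% of its UMIs in C-ON. Tnf was at 29.7 and 35.3 CPM against 75.2 and 104 CPM, and Lta, Tnfsf11, Xcl1 and Il2 were the others. Il17a had 0 UMIs in members of both libraries and 57 in conventional CD4 T cells, which is at least 9.19-fold lower if 3 counts over both libraries are taken as the limit, but all 57 were in FMC_new, in 0.512% of its conventional CD4 T cells. Il13 had 65 UMIs in the members of C-ON, all in 1 cell, and 0 in FMC_new, so no level of the class can be read from it. Compared with CD8 T cells 3 of 18 were lower, namely Xcl1, Ccl5 and Ccl1, beside 1.77% of all genes tested there.

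Ccl5 and Ccl4 are chemokines of the circuit described for this glioma. A UMI of Ccl5 was in 59.7% and 55.2% of members and in 4.91% and 23.1% of oligodendrocytes, which should lack the gene and were deeper (medians of 7724.5 and 7229.5 UMIs against 3312 and 3188). For Ccl4 these shares were 11.7% and 14.6% of members and 2.33% and 10.6% of oligodendrocytes. Ccl5 was at 1220 and 992 CPM, against 324 and 556 CPM in conventional CD4 T cells (log2 1.37 ± 0.30, adjusted p = 0.21) and 5245 and 5321 CPM in CD8 T cells (log2 -2.29 ± 0.12, adjusted p = 0.00026). Ccl4 was at 277 and 393 CPM in members, 202 and 233 CPM in conventional CD4 T cells (adjusted p = 0.15) and 355 and 569 CPM in CD8 T cells (adjusted p = 0.14), and 1 member held 72.3% of its UMIs in C-ON. Members were between the other classes for Ccl5 in each library. Of 21 tested genes of that circuit and of midkine receptors, 0 were higher and 1 (Itgb1) was lower than in conventional CD4 T cells. Nf1 was at 42.1 and 24.8 CPM in members, 33.3 and 47.9 CPM in conventional CD4 T cells (adjusted p = 0.80) and 35.8 and 37.7 CPM in CD8 T cells (adjusted p = 0.79). Of 19 tested regulators of RAS and MAPK feedback, 0 were called against conventional CD4 T cells by edgeR and 0 by DESeq2, and 4 had an unadjusted p under 0.05. Over all 10319 genes tested there, 0.455% were called higher and 0.862% lower, and 966 had an unadjusted p under 0.05.

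Inhibitory receptors were mixed. Of 11 tested, Klrg1 and Tigit were higher and Btla was lower than in conventional CD4 T cells. With DESeq2 1 was higher and 0 were lower. Over all genes tested there 0.455% were higher and 0.862% lower. Tigit was at 468 and 525 CPM against 209 and 307 CPM (log2 0.96 ± 0.17, adjusted p = 0.027). Pdcd1 (PD-1) was at 156 and 168 CPM in members and 156 and 197 CPM in conventional CD4 T cells (log2 -0.13 ± 0.17, adjusted p = 0.91), and lower than the 443 and 445 CPM of CD8 T cells (log2 -1.48 ± 0.14, adjusted p = 0.0019). Lag3 was at 210 and 169 CPM against 99.9 and 139 CPM in conventional CD4 T cells (adjusted p = 0.35) and 201 and 185 CPM in CD8 T cells (adjusted p = 0.96). Genes of recirculating and resting T cells gave 0 higher and 2 lower of 16 against conventional CD4 T cells (median log2 -0.67), beside the same backgrounds. With DESeq2 0 were higher and 1 was lower. Tcf7, a factor of naive and memory T cells, was in 3.90% and 6.63% of members and 36.9% and 38.5% of conventional CD4 T cells (log2 -3.15 ± 0.26, adjusted p = 0.00071), while S1pr1, the receptor for egress to blood, was at 2.47 and 13.8 CPM against 45.1 and 47.6 CPM (adjusted p = 0.053).

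Genes of cell division and of the interferon response gave no call against conventional CD4 T cells, with 0 of 22 and 0 of 21 genes called by edgeR or DESeq2. The backgrounds were 0.455% higher and 0.862% lower, so few calls were to be had. At an unadjusted p under 0.05 there were 3 cell division genes, all higher, and 7 interferon genes, 2 higher and 5 lower. Of all 10319 tested genes 966 had such a p. Mki67 or Top2a was detected in 11.7% of members in C-ON (95% exact interval 5.49 to 21.03%) and 18.8% in FMC_new (15.01 to 23.2%). Mki67 was at 42.1 and 118 CPM in members and 87.0 and 116 CPM in conventional CD4 T cells (adjusted p = 0.85), and 1 member held 88.2% of its UMIs in C-ON. The interferon-inducible genes Ly6a (log2 1.60 ± 0.15), Iigp1 (log2 1.52 ± 0.17) and Ifi27l2a (log2 1.09 ± 0.14) were higher than in CD8 T cells. These were 3 of 21, beside 1.92% of all genes tested there. Among 20 immediate early and stress genes, which respond to tissue dissociation, Btg2 was lower than in conventional CD4 T cells and 0 were higher. Of 25 genes of T cell receptor signalling, Myc was higher and Slamf6 and Cd247 were lower.

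The genes with the largest differences included several outside the lists. Against conventional CD4 T cells, the 15 highest were Flicr, Ncmap, Rragd, Klrg1, Rln3, Il2ra, Gzmb, Neb, Hba-a1, Tff1, Itgav, C1qtnf6, Ecm1, Ikzf4 and Lamc1. Flicr, a non-coding RNA known to regulate Foxp3, was at 34.6 and 23.7 CPM against 2.15 and 1.64 CPM (log2 3.85 ± 0.52, adjusted p = 0.0078). It spans chrX:7573600-7581027 and Foxp3 spans chrX:7573644-7595245 on the same strand (GRCm38), so reads of the overlap cannot be told apart and Flicr is no measure independent of the rule. Rln3, which encodes the peptide hormone relaxin 3, was in 29.9% and 25.2% of members, at 146 and 165 CPM against 19.3 and 19.4 CPM in conventional CD4 T cells (log2 3.03 ± 0.20, adjusted p = 0.00014) and 5.41 and 4.98 CPM in CD8 T cells (log2 4.92 ± 0.21, adjusted p = 0.00015). Neb, the gene of the muscle protein nebulin, was in 40.3% and 39.3% of members against 6.95% and 7.80% of conventional CD4 T cells (log2 2.57 ± 0.20, adjusted p = 0.00032). Both genes kept apart from the other classes in each library.

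Rragd, a Rag GTPase of the amino acid branch of mTORC1 signalling, was at 34.6 and 24.2 CPM against 1.07 and 3.83 CPM, and Lamc1, the laminin gamma 1 chain, at 158 and 115 CPM against 30.1 and 28.2 CPM (log2 2.17 ± 0.20, adjusted p = 0.0010). Hba-a1, a haemoglobin gene whose near-identical copy Hba-a2 may share its reads, had 1 UMI in C-ON and 465 in FMC_new, with UMIs in 1.30% and 2.12% of members and 34.2% of the latter in 1 cell. Tff1 likewise had 71.4% of its 7 UMIs in C-ON in 1 cell. The 10 lowest were Sostdc1, Il2, Esm1, Pawr, Tnfsf8, Fbn2, Spp1, Tcf7, Mgp and St8sia1. Sostdc1, a BMP antagonist that follicular helper T cells can secrete, had 0 and 4 UMIs in members against 24.7 and 46.5 CPM in conventional CD4 T cells (log2 -4.54 ± 0.54, adjusted p = 0.0035). Markers of monocytes and macrophages, cells known for Spp1, summed to 1502 and 1369 CPM in members and 262 and 2883 CPM in conventional CD4 T cells, and their part in the Spp1 result was not tested. Immunoglobulin genes were 15 of the 89 genes lower in members and 2 of the 47 higher, and their share among all tested genes was not counted. Plasma cell markers summed to 9865 and 5392 CPM in members and 5816 and 6169 CPM in conventional CD4 T cells.

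Against CD8 T cells, the 15 highest genes were Gpr83, Flicr, Lrrc32, Rln3, Ncmap, Il10, Areg, Ecm1, Igsf23, Tnfrsf4, Angptl2, Neb, Il2ra, Ccn4 and Izumo1r. Izumo1r, the folate receptor 4 of regulatory and anergic CD4 T cells, was in 64.9% and 71.1% of members, at 391 and 496 CPM against 144 and 236 CPM in conventional CD4 T cells (log2 1.25 ± 0.17, adjusted p = 0.0078) and 27.0 and 34.1 CPM in CD8 T cells (log2 3.83 ± 0.15, adjusted p = 0.00012). Gpr83, a receptor long linked to regulatory T cells, was at 7.42 and 19.3 CPM in members and 0.338 and 0.0977 CPM in CD8 T cells (log2 6.39 ± 0.87, adjusted p = 0.011), with 2.15 and 5.47 CPM in conventional CD4 T cells (adjusted p = 0.24). Angptl2 and Ccn4 had log2 values of -0.03 ± 0.35 and -0.01 ± 0.30 against conventional CD4 T cells.

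The lowest genes against CD8 T cells were Klri2, Eomes, Smyd1, Styk1, Klra3, Tnfsf4, Klrc2, Tcrg-C2, Xcl1 and Klrc1. The first 5 had 0 UMIs in all members, so each difference is a lower bound with 3 counts over both libraries as the limit. Klri2, a natural killer lectin receptor, was at least 36.5-fold lower and Eomes, a factor of cytotoxic cells, at least 27.0-fold lower. Smyd1, Styk1 and Klra3 were at least 12.6-fold, 7.79-fold and 7.68-fold lower. Smyd1 (chr6:71213940-71322233) lies next to Cd8b1 (chr6:71322788-71337494), which members had to lack. Whether the Smyd1 difference is independent of the rule was not tested. Klrc1 (NKG2A) was at 2.47 and 6.61 CPM in members and 199.98 and 180.5 CPM in CD8 T cells (log2 -5.04 ± 0.28, adjusted p = 0.00027).

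**Figure D4:**
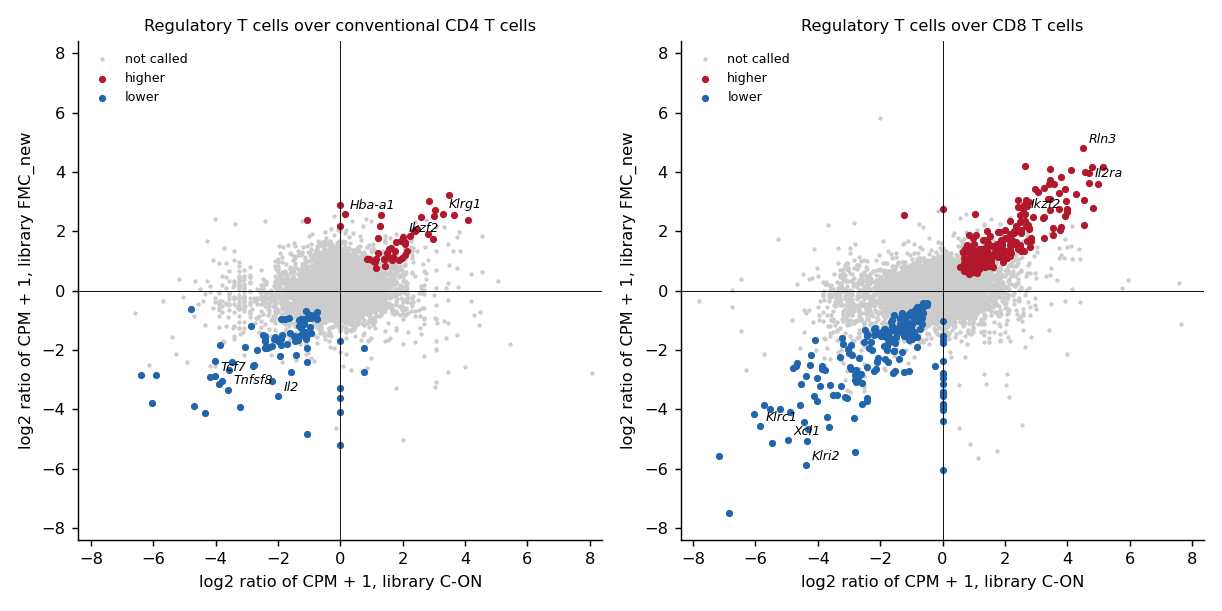
Log2 ratio of CPM + 1 between regulatory T cells and conventional CD4 T cells (left panel) or CD8 T cells (right panel) in library C-ON (x axis) and library FMC_new (y axis), 1 point per tested gene. Of the genes called by edgeR, 44 of 47 (red) and 82 of 89 (blue) have the same sign on both axes in the left panel. Points exactly on the vertical line at 0 had no UMI in either class of C-ON, so no difference was measured there.

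Of 35 Trbv genes, 17 were seen in members of C-ON and 21 in members of FMC_new. In the more numerous conventional CD4 T cells 22 and 24 were seen, and diversity was not tested. At least 1 Trbv gene was read in 75.3% of members in C-ON and 72.9% in FMC_new, below the 86.1% and 83.9% of conventional CD4 T cells, at somewhat lower median depth. Among members with exactly 1, Trbv13-3 was used by 18 of 49 in C-ON (36.7%, 95% exact interval 23.4 to 51.7%) and 24 of 199 in FMC_new (12.1%, 7.88 to 17.4%), against 14.3% (8.55 to 21.9%) and 6.34% (4.37 to 8.83%) of conventional CD4 T cells. Trbv19 was used by 14.3% and 16.1% of members and by 11.8% and 13.5% of conventional CD4 T cells. In summed counts Trbv13-3 was not called against conventional CD4 T cells (log2 0.42 ± 0.45, adjusted p = 0.89). Trbv13-1 was lower in members (log2 -1.32 ± 0.20, adjusted p = 0.012), and so was Trbv4. By cells with exactly 1 Trbv gene, Trbv13-1 was used by 8.16% (2.27 to 19.6%) and 5.03% (2.44 to 9.05%) of members. In conventional CD4 T cells its shares were 10.1% (5.32 to 17.0%) and 10.3% (7.79 to 13.3%), with overlapping intervals in each library.

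Among alpha-chain genes Trav7-4 was used alone by 29 of 161 members in FMC_new (18.0%, 12.4 to 24.8%) and by 7.34% of conventional CD4 T cells there, whereas in C-ON it was used by 1 of 34 members (2.94%) and 3.53% of conventional CD4 T cells. It was higher in members than in CD8 T cells (log2 3.20 ± 0.31, adjusted p = 0.0024) but not called against conventional CD4 T cells (log2 1.08 ± 0.38, adjusted p = 0.35). Near-identical copies of Trav genes make the gene assignment uncertain. A single Trbv and a single Trav gene were both read in 22 and 94 members. They fell into 20 and 68 gene pairs, of which 18 and 57 were seen in 1 cell, and the largest were 2 cells in C-ON and 8 cells in FMC_new (Trbv19 with Trav7-4). Gene pairs are not clonotypes, because the joining sequences are not in these counts.

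**Figure D5:**
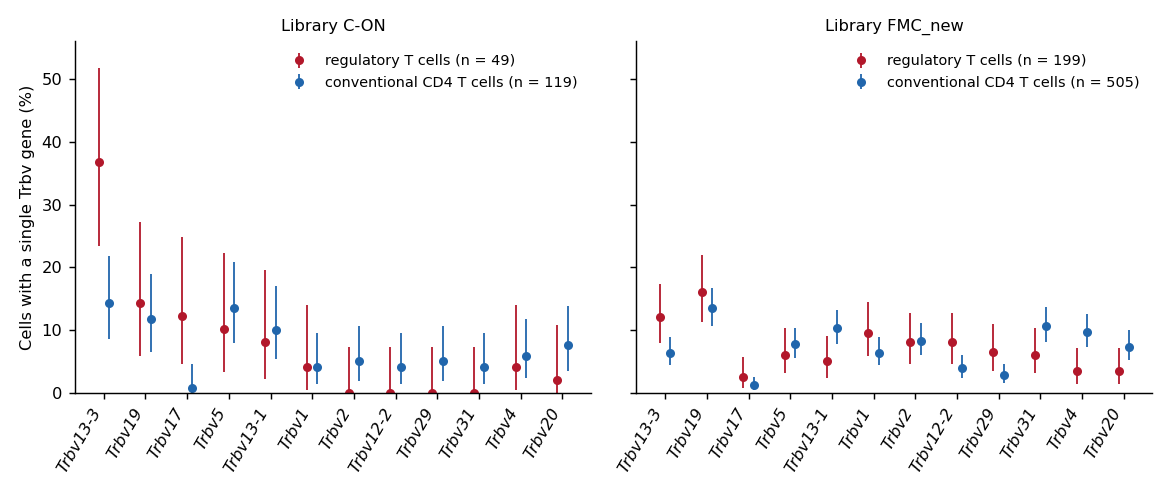
Share of cells using each Trbv gene (y axis, percent) among cells with exactly 1 Trbv gene, in regulatory T cells (red) and conventional CD4 T cells (blue) of each library; bars are 95% exact binomial intervals. Trbv13-3 is at 36.7% of 49 members in C-ON and 12.1% of 199 members in FMC_new.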

How the data were processed

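The authors deposited raw UMI counts per gene and barcode for each of the 2 libraries, made with Cell Ranger 7.2.0 on mm10 according to the file headers and the submitters' notes; the handling of intronic reads is not given in the sources used here. Barcodes with 500 to 5000 genes, 500 to 20000 UMIs and at most 5% mitochondrial UMIs were kept. No doublet caller was run, and cells of high UMIs were limited by these filters only. The members and gene lists were chosen with earlier results of these data known. Counts were summed per library and class and tested with edgeR 4.0.16 (TMM, filterByExpr, library block), leaving out genes the rules used. The fit leaves a single residual degree of freedom. Each gene's variance was moderated toward that of all genes, with median prior degrees of freedom of 8.10 (conventional CD4 T cells) and 6.13 (CD8 T cells). The p-values and SEs thus rest largely on a spread pooled over genes, between 2 libraries, that may be technical. On sums simulated with a common dispersion of 0.037 for every gene, the test against conventional CD4 T cells recovered 86.4% of 4-fold and 17.2% of 2-fold changes. Genes with a wider spread were not simulated, so these rates may not hold for them. For each comparison the 15 largest and 10 smallest called folds with 30 or more UMIs and 1 direction in both libraries were named, leaving out mitochondrial, ribosomal, immunoglobulin, variable and Gm or Rik genes, with list genes by counts. Named outside this rule, after their values were seen, were Trbv4, Trbv13-1, Trbv13-3, Trbv19 and Trav7-4. Thinning drew 1000 UMIs per cell (seed 7). DESeq2 1.42.0 was an alternative. Gene positions are from GENCODE M21. Results that need items withheld for evaluation are not reported here.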

Additional observations from a re-analysis of the deposited data

Results flagged for a closer look

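Foxp3 UMIs were also found in cells outside the T cell classes tested, in numbers above the 3 that a count of 0 allows. Cells with a Foxp3 UMI, CD3 and a CD8 UMI numbered 9 in C-ON (0.684% of CD3-positive cells) and 82 in FMC_new (1.39%). Cells with a Foxp3 UMI and no CD3 UMI numbered 38 in C-ON (0.505% of kept cells without CD3) and 84 in FMC_new (0.770%). Oligodendrocytes, of which 0.530% and 0.742% had a Foxp3 UMI, were defined without CD3 and so are part of these cells. They made up 6044 of the 7518 kept cells without CD3 in C-ON and 2696 of 10903 in FMC_new. The shares are therefore not independent and their nearness shows nothing.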

How the results depend on the processing

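Genes called higher and lower than in conventional CD4 T cells (47 and 89) became 25 and 24 with DESeq2, 187 and 246 with every gene seen in each library, 1 and 2 with no library term, which is the fit without the replicate block, 211 and 239 with at least 2 Foxp3 UMIs and 142 and 171 with at least 1 Cd4 UMI. Against CD8 T cells (223 and 206) they became 137 and 73, 428 and 444, 48 and 45 with DESeq2, every gene and no library term, and 365 and 325 with a Cd4 UMI. The share of calls that were higher moved from 34.6% to 51.0% against conventional CD4 T cells and from 52.0% to 65.2% against CD8 T cells with DESeq2. The number of members was 202 with at least 2 Foxp3 UMIs, 189 with a Cd4 UMI, and 77 to 377 with 1 library left out. Their share of kept cells was 0.788% and 0.737% under these rules, 3.01% without cells over 5% foreign markers (chosen after seeing the data) and 0.872 to 2.24% by library. Of CD4-lineage T cells it was 17.3%, 16.3% and 29.2 to 32.5%, and of CD3-positive cells 2.79%, 2.61%, 6.97% (foreign markers), 7.56% (CD3 of at least 2) and 5.85 to 6.37%. Leaving out cells with 2 or more foreign-marker UMIs left 3 members and 0, so it gave no value. Leaving out a library left no residual degree of freedom and no test. Of 142 called gene values, none changed sign under the alternatives run (1210 same, 171 past the threshold no longer). The 1210 include values with 1 library left out, which were compared by sign only and had no p-value. Genes named for their folds had been chosen for 1 direction in both libraries, so their sign there was fixed in advance. Among log2 values not called, Lag3 against CD8 T cells turned to 0.0485, 0.0999 and 0.0535 (at least 2 Foxp3 UMIs, a Cd4 UMI, foreign markers). Against conventional CD4 T cells Ccl3 turned to 0.0907 and 0.11 (a Cd4 UMI, foreign markers), Il10 to -0.0526 (thinned), Mki67 to 0.29, 0.0619 and 0.22 (at least 2 Foxp3 UMIs, a Cd4 UMI, thinned) and Tbx21 to -0.0233, -0.0105, -0.0436, -0.0358 and -0.54 (DESeq2, every gene, no library term, foreign markers, thinned). The cause was not tested for any of these.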
